A study of Mus musculus with 2 samples.

Results

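Tnmd-high tendon and ligament cells were examined among single cells of the Ctsk lineage from the femurs of 2 mice. Tnmd encodes tenomodulin, and the cells were selected on it: a well was a member where Tnmd reached 2000 CPM (a gene's count scaled to the same total in each well), the summed CPM of Mfap5 and Cd34 was below 300, and the summed CPM of Ucma, Matn3, Col9a1 and Lect1 was below 4000. Of 653 wells in which 500 or more genes were detected and mitochondrial genes took no more than 20% of the counts, 87 were members, 51 from animal 1 and 36 from animal 2. Both animals were C57/B6 littermates of genotype CTSK-cre+ mTMG, taken at postnatal day 6, and there was no second genotype, treatment or age. In this genotype Cre is made from the cathepsin K promoter and switches a reporter from membrane tomato to membrane GFP for good, so a sorted green cell has or once had Ctsk promoter activity, or descends from such a cell. Each animal filled its own 384-well plate (47 for animal 1, 48 for animal 2), and animal and plate cannot be told apart.

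Tendons and ligaments join muscle to bone and bone to bone through parallel fibrils of type I collagen. Scleraxis (Scx) and mohawk (Mkx) are transcription factors of tendon cells, and tenomodulin, a type II membrane protein of mature tendon cells, is a known target of scleraxis. Collagens XII and XIV, the small leucine-rich proteoglycans and thrombospondins sit on the fibril surface and regulate fibril width and packing. At the attachment to bone, the enthesis, tendon cells grade into fibrocartilage with cartilage collagens and proteoglycans. Tendon and ligament share these markers, and none of the genes read here separates one from the other.

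The upstream sequences of 2 genes are shown, Tnmd because it chose the cells and Thbs4 because it was 1 of the 2 fixed tendon markers whose levels ran most closely with Tnmd among the members. Each run goes from 250 to 29 bases before the RefSeq start on GRCm38.p6 (222 bases), read 5′ to 3′ on the gene's strand. The bases next to the start were left out because the GENCODE M21 gene body of Tnmd begins before the RefSeq start. No run is shown for Kera, the other of the 2 markers, because its GENCODE gene body begins further upstream still and covers the window. Capitals mark an E-box (CANNTG, the same on both strands), the element that basic helix-loop-helix factors such as scleraxis bind. The Tnmd run lies at chrX:133850758-133850979 (plus strand) and the Thbs4 run at chr13:92794847-92795068 (minus strand).
Tnmd: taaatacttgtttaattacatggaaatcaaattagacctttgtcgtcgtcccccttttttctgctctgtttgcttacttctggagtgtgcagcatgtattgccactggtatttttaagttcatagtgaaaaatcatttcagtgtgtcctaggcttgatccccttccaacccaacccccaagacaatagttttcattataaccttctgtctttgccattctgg
Thbs4: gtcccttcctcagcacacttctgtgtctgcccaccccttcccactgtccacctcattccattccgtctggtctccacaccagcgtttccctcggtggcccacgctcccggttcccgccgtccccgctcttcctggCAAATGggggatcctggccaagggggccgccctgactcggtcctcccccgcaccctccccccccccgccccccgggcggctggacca
The Thbs4 run held 1 E-box, at position -115 from the RefSeq start, and the Tnmd run held 0. Of 32851 RefSeq promoters read over the same window, 62.4% held at least 1, so a match or its absence in this window is a description only. The gene bodies of Tnmd (ENSMUSG00000031250.8, chrX:133850980-133865577, plus strand), Kera (ENSMUSG00000019932.8, chr10:97606879-97613692, plus strand), Thbs4 (ENSMUSG00000021702.7, chr13:92751590-92794818, minus strand) and Scx (ENSMUSG00000034161.8, chr15:76457452-76459458, plus strand) follow GENCODE M21, an annotation of the same build.

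Tnmd itself is described without a test because it chose the wells. Members held 2002 to 23464 CPM of Tnmd in animal 1 (median 6693) and 2112 to 23195 CPM in animal 2 (median 8791). Just inside the threshold stood wells at 2002 and 2228 CPM in animal 1 and 2112 and 2171 in animal 2, and just outside it wells at 1971 and 1489 in animal 1 and 1956 and 1951 in animal 2. The threshold therefore marks no clear break in either animal, though in animal 1 the nearest wells outside it stood apart (1971 and 1489 CPM). Of 112 kept wells at or above 2000 CPM, 10 were left out by the cartilage sum and 15 by the Mfap5 and Cd34 sum, while 208 kept wells had no Tnmd count. Members made up 16.0% of kept wells in animal 1 (95% Clopper-Pearson interval 12.2 to 20.5) and 10.7% in animal 2 (7.64 to 14.6), intervals that overlap and cover counting error only. Members were found in every plate quadrant, 12, 12, 12 and 15 in animal 1 and 8, 8, 10 and 10 in animal 2.

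Depth overlapped between members and other wells. The median member had 97529 counts and 2108 genes in animal 1 and 109868 counts and 2038.5 genes in animal 2, against 101270 counts and 2218 genes, and 119284 counts and 2182 genes, in all other kept wells. The median mitochondrial share was 4.28% and 3.98% in members and 3.33% and 3.15% in the others, higher in members of both animals, and its part in the results was not tested. Both plates carried the same 95 barcodes, and 280 positions of barcode and quadrant held a well in both, 4 of them a member in both.

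Counts were summed per animal and class, and members were compared with all other kept wells (566) and with 3 classes of them. Cartilage-gated wells (180) had a summed CPM of Ucma, Matn3, Col9a1 and Lect1 of at least 4000. Mfap5 Cd34-gated wells (166), a fibroblast gate, were the rest with Mfap5 and Cd34 at 300 CPM or more, and the remaining wells (220) were below every gate. The 7 genes of the rule were left out of each test, but genes that go with them in the same wells were not, so lower cartilage genes against the first class and lower fibroblast genes against the second stand close to what the gates used. Against the cartilage-gated wells 62 of 14376 genes were higher (0.431%) and 15 lower (0.104%) at an adjusted p under 0.05 in edgeR's quasi-likelihood test. Against the Mfap5 Cd34-gated wells 30 were higher (0.209%) and 13 lower (0.0904%). Against all other wells (14080 genes) and against the remaining wells (14376 genes), edgeR's test called 0 genes (0% in each direction). At an unadjusted p under 0.05 there were 907 genes against all other wells (258 higher, 649 lower) and 1238 against the remaining wells (379 higher, 859 lower), and DESeq2 called 305 and 545. The first of these fits has 4 sums and 1 residual degree of freedom, and its smallest adjusted p was 0.515. All 4 comparisons share the member sums.

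Tendon markers other than Tnmd stood higher in members than in all other wells in both animals, apart from Comp, though none passed the adjusted test. Of the 11 tested markers of the list, all 11 had a positive fitted log2 fold change against all other wells (median 1.51, against -0.37 over all genes), 0 passing. Against the cartilage-gated wells 10 of 11 were positive and Kera, Tnc and Col14a1 passed, and against the Mfap5 Cd34-gated wells all 11 were positive and Fmod, Tnc, Col12a1 and Comp passed. Kera, keratocan, a keratan sulfate proteoglycan of cornea and tendon, was at 2011 and 1361 CPM in the members of animals 1 and 2 and at 129.6 and 35 in the others. Thbs4, thrombospondin-4, a matrix protein of tendon and muscle attachments, was at 916 and 1074 against 117 and 110.1 CPM. The 2 groups did not overlap for either gene, with log2 fold changes of 4.74 ± 0.41 and 3.26 ± 0.16 (± SE, edgeR adjusted p = 0.515 for both). Cilp2, a protein of the cartilage intermediate layer family, was at 233 and 174 CPM in members against 31.8 and 36.6. Fmod, fibromodulin, which regulates collagen fibril assembly, was at 1827 and 1959.6 CPM against 643 and 818. Clec11a, a secreted growth factor of bone and marrow stroma, was at 441 and 281 against 199 and 205 CPM. Comp, cartilage oligomeric matrix protein, was at 264 and 229 CPM against 226 and 247, so that its groups overlapped.

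**Figure D1:**
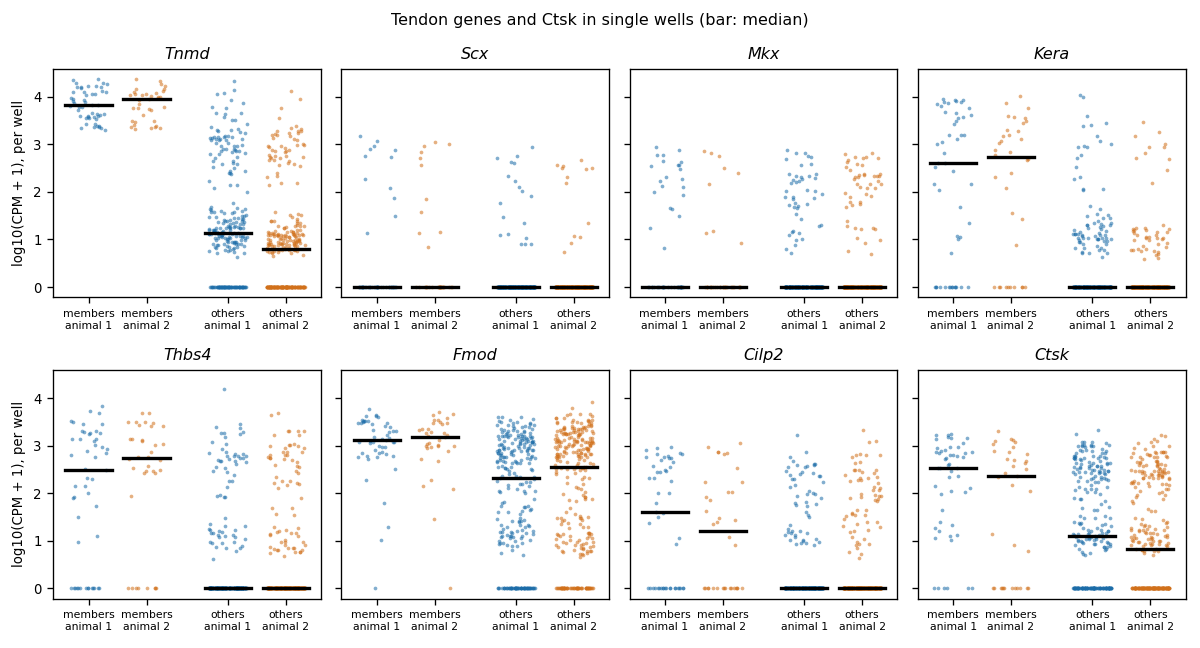
Single-well levels of 8 genes on a log10(CPM + 1) scale (vertical axis) in members and in all other kept wells of each animal; each point is a well and the bar is the median. Tnmd chose the members, and the members' median of Kera lies at 400.2 and 554 CPM while the median of the other wells lies at 0.

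Well by well, a member had a count for a median of 7 of the 11 markers in each animal (range 4 to 10), and another well for a median of 4 (range 0 to 9). After each well was thinned to 20000 counts the medians were 6 and 3. Kera was then seen in 64.7% and 66.7% of members and 12.9% and 6.69% of other wells, and Thbs4 in 66.7% and 77.8% against 17% and 14.7%. The data thus do not go against the label, and some members of each animal showed no Kera at that depth.

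The transcription factors Scx and Mkx were sparse. They belong to a list of 17 tendon transcription factors of which 0 passed in any of the 4 comparisons, and 7 of the 16 tested were positive against all other wells (median -0.56, against -0.37 over all genes). Scx was at 111 and 121 CPM in members and 14.9 and 9.69 in all other wells, without overlap (log2 fold change 3.40 ± 0.37, edgeR adjusted p = 0.515). Only 12 of 51 and 11 of 36 members had a Scx count, and after thinning 19.6% and 19.4% of members did, against 4.17% and 3.34% of other wells. Mkx was at 109 and 79.4 CPM against 32.9 and 31.8, with a count in 22 and 9 members. Scx and Mkx were found together in 3 members of animal 1 and 2 of animal 2, Scx alone in 9 and 9, Mkx alone in 19 and 7, and neither in 20 and 18. These are shares of wells with a count, and a well without one may still express the gene.

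Among collagens, Col1a1 and Col1a2 alone rose in both class comparisons that gave calls. The list of 18 held collagens VI, VIII and XV beside the fibril and fibril-associated collagens. Of the 18, 9 rose and 0 fell against the cartilage-gated wells, with Col6a1, Col6a2 and Col6a3 among the 9. Against the Mfap5 Cd34-gated wells 4 rose (Col1a1, Col1a2, Col12a1 and Col16a1) and 0 fell. The median log2 fold changes were 1.65 and 0.73, against -0.18 and -0.13 over all genes. Col1a1, a chain of type I collagen, the main fibre of tendon and bone, was at 16085 and 12578 CPM in members. It was at 5017 and 3339 in the cartilage-gated wells, 6332 and 3182 in the Mfap5 Cd34-gated wells and 9657 and 6618 in the remaining wells. Both members' values lay above every other class. The rise was 1.80 ± 0.15 on the log2 scale against the first class (edgeR adjusted p = 0.0224) and 1.80 ± 0.15 against the second (0.0336). Col1a2, the other chain of type I collagen, rose by 1.38 ± 0.14 (0.0346) and 1.54 ± 0.14 (0.0339) in the same 2 comparisons. Without the animal as a block neither chain passed (edgeR adjusted p = 0.114 and 0.131 for Col1a1, 0.115 and 0.101 for Col1a2).

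The other collagens divided by comparison. Col14a1, the fibril-associated collagen XIV, rose by 3.87 ± 0.35 against the cartilage-gated wells (edgeR adjusted p = 0.0258). Its level of 528 and 779 CPM in members overlapped with 729.7 and 456 in the Mfap5 Cd34-gated wells. Col12a1, the related collagen XII, rose by 2.42 ± 0.13 against the Mfap5 Cd34-gated wells (edgeR adjusted p = 0.0115), where it was at 390.2 and 298 CPM against 1992 and 1344 in members. Against the cartilage-gated wells (1146 and 969 CPM) it did not pass (0.152). Col16a1 rose by 2.43 ± 0.21 in the second comparison (0.0336). The remaining rises against the cartilage-gated wells were Col3a1, Col5a1 and Col5a2, which co-assemble with type I collagen, and the 3 chains of the beaded-filament collagen VI, Col6a1, Col6a2 and Col6a3. Col6a3 rose the most of the 3, by 2.14 ± 0.15 (edgeR adjusted p = 0.0167), from 354 and 275 CPM to 1355 and 1389. Col3a1 stood at 4956 and 3349.8 CPM in members and at 10295 and 7164 in the Mfap5 Cd34-gated wells, a log2 difference of -0.93 ± 0.14 that did not pass (0.111).

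**Figure D2:**
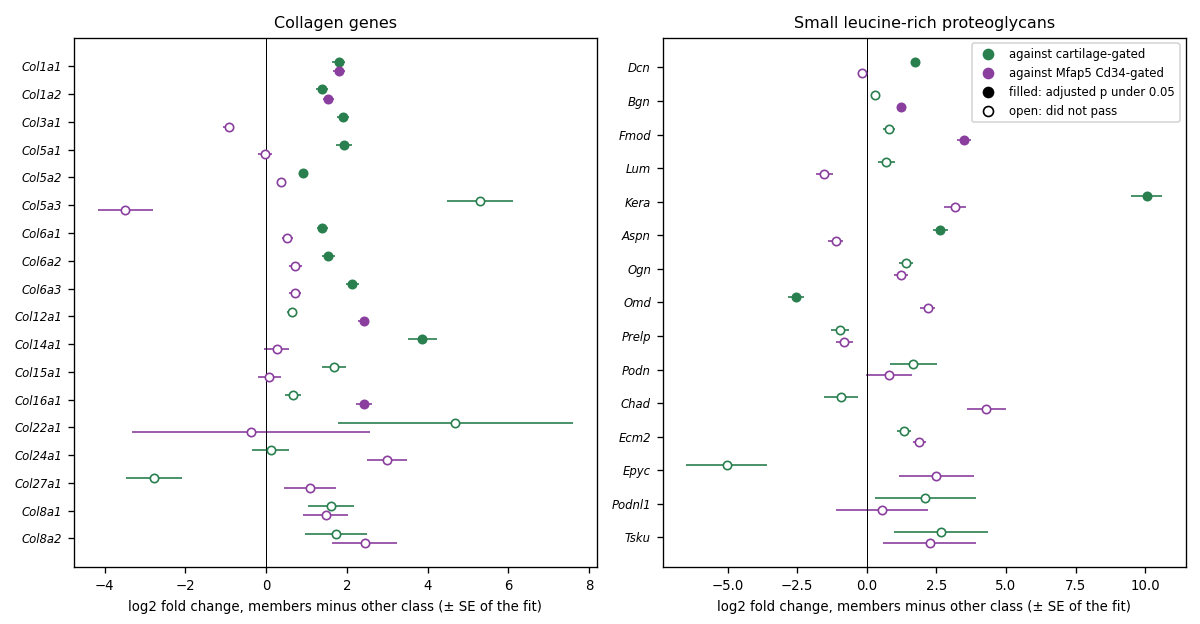
Fitted log2 fold changes (horizontal axis, bars ± SE worked back from edgeR's F statistic) of 18 collagens and 15 small leucine-rich proteoglycans in members against cartilage-gated wells (green) and against Mfap5 Cd34-gated wells (purple). Filled points passed at an adjusted p under 0.05. Col1a1 and Col1a2 are the collagens with filled points in both comparisons.

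The small leucine-rich proteoglycans, which bind collagen fibrils and limit their width, were mixed. Of 15 tested, Dcn, Kera and Aspn rose and Omd fell against the cartilage-gated wells, and Bgn and Fmod rose against the Mfap5 Cd34-gated wells. The medians were 1.33 and 1.23, against -0.18 and -0.13 over all genes. Kera was at 3.26 and 0.732 CPM in cartilage-gated wells, 411 and 113 in Mfap5 Cd34-gated wells and 38.3 and 9.73 in the remaining wells. Its rise of 10.05 ± 0.55 against the first passed (edgeR adjusted p = 0.0155). The differences of 3.16 ± 0.39 against the second (0.0692) and 6.62 ± 0.46 against the remaining wells (0.076) did not. Fmod was at 1827 and 1959.6 CPM in members, 1001 and 1164 in cartilage-gated wells and 203 and 169 in Mfap5 Cd34-gated wells, a rise of 3.49 ± 0.24 over the last (edgeR adjusted p = 0.0184). Dcn, decorin, rose by 1.74 ± 0.11 against the cartilage-gated wells (0.0155), while its members' levels of 5094 and 4991 CPM stood beside 6739 and 5731 in the Mfap5 Cd34-gated wells. Omd, osteomodulin, fell by 2.55 (SE 0.28) on the log2 scale against the cartilage-gated wells (edgeR adjusted p = 0.041), with 62.5% of its member counts in animal 2 from 1 well. Lum, lumican, was at 1118 and 759.8 CPM in members and 1889 and 1283 in all other wells and passed in no comparison.

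Among 30 glycoprotein and elastic fibre genes, Tnc, Thbs2, Fbn1, Mfap4, Fbln1 and Postn rose and Efemp1 fell against the cartilage-gated wells. Against the Mfap5 Cd34-gated wells Tnc, Comp and Sparc rose and Fbn1, Eln and Efemp1 fell. The medians were 1.50 and 0.27, against -0.18 and -0.13 over all genes. Tnc, tenascin-C, an anti-adhesive protein of tendon and of the myotendinous junction, was at 418 and 369 CPM in members, 144 and 123 in cartilage-gated wells and 71.6 and 81.6 in Mfap5 Cd34-gated wells. It rose by 1.56 ± 0.19 (edgeR adjusted p = 0.0492) and 2.50 ± 0.19 (0.0269), and its 439 and 335 CPM in the remaining wells overlapped with the members. Against the cartilage-gated wells the Tnc call was lost under 4 alternatives, with adjusted p from 0.0531 to 0.0904. Comp rose by 3.30 ± 0.24 against the Mfap5 Cd34-gated wells (0.0235), where it was at 28 and 27.5 CPM.

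Elastic fibre genes did not move as a group, and Fbn1 alone of the 4 described here passed in opposite directions against the 2 gated classes. Fbn1, fibrillin-1, the main microfibril protein, was at 156 and 152 CPM in members, 37.6 and 30.2 in cartilage-gated wells and 979 and 883 in Mfap5 Cd34-gated wells. It rose by 2.19 ± 0.23 against the first (edgeR adjusted p = 0.0377) and fell by 2.44 (SE 0.23) against the second (0.0339), without overlap in either. The rise was lost with a Tnmd threshold of 1000 CPM (adjusted p = 0.0528) and in limma on mean CPM (0.0710). Eln, elastin, was at 29.1 and 14.6 CPM in members and 358 and 214 in Mfap5 Cd34-gated wells, a fall of 3.59 (SE 0.29, edgeR adjusted p = 0.0308). The Eln difference of 0.17 ± 0.27 against the cartilage-gated wells did not pass (0.870). Efemp1, fibulin-3, had no count in any member. With a limit set at 3 counts over all members, Efemp1 was 173-fold lower than in cartilage-gated wells (44 and 67.7 CPM, edgeR adjusted p = 0.0299). At the same limit it was 316-fold lower than in Mfap5 Cd34-gated wells (54.9 and 149 CPM, 0.0339). Counts were not read as molecules here, so a missed molecule could exceed that limit. Mfap4, a microfibril-associated glycoprotein, was at 572 and 355 CPM against 28.3 and 12 in cartilage-gated wells, a rise of 4.59 ± 0.50 (edgeR adjusted p = 0.041). The Mfap4 differences of 0.59 ± 0.43 against the Mfap5 Cd34-gated wells (0.645) and 2.70 ± 0.46 against the remaining wells (0.398) did not pass.

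Of 22 collagen processing and crosslinking genes, Lox alone passed: this lysyl oxidase, which starts collagen and elastin crosslinks, rose by 2.00 ± 0.17 against the cartilage-gated wells (edgeR adjusted p = 0.0224), from 151 and 100.3 CPM to 611 and 398. Pcolce, which speeds the removal of the type I procollagen C-propeptide, was at 2253 and 1502 CPM in members and 1109 and 959 in all other wells (0.515). Serpinh1, the collagen chaperone, was at 835 and 763 against 649.7 and 565 CPM (0.515).

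The 5 called genes with the largest rises against the cartilage-gated wells were Kera, Gas2, Egfl6, Crabp1 and Il33. Egfl6, a secreted EGF-like matrix protein, was at 228 and 151 CPM in members and 0.51 and 0.366 in cartilage-gated wells (rise of 8.70 ± 0.78, edgeR adjusted p = 0.0258). It was present in the Mfap5 Cd34-gated wells at 94.2 and 29.6 CPM. Crabp1, a retinoic acid binding protein, was at 475 and 258 CPM in members, 2.04 and 0.22 in cartilage-gated wells and 322 and 156 in the remaining wells (rise of 8.54 ± 0.71 against the cartilage-gated wells, 0.0224). Gas2, which binds the cytoskeleton, was counted in 10 and 6 members at 60.1 and 48.3 CPM and once in the cartilage-gated wells. The ratio was 1289 (95% Poisson counting interval 231 to 50899, edgeR adjusted p = 0.0399). Such intervals, here and below, treat counts as independent molecules, which they were not taken to be, so they may be too narrow. Il33, a nuclear cytokine of stromal cells, was at 34.7 and 59.6 CPM in members, with 58.3% of the counts of animal 1 in 1 well, and had 3 counts in the cartilage-gated wells, a ratio of 357 (122 to 1732; 0.0315). Il33 stood at 81.1 and 46.3 CPM in the Mfap5 Cd34-gated wells, so members overlapped with them.

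Cited1 rose the most against the Mfap5 Cd34-gated wells. This transcriptional coregulator was at 121 and 144 CPM in members, counted in 10 and 7 of them, and at 0.12 and 0.284 in that class (rise of 9.44 ± 0.51, edgeR adjusted p = 0.0115). In cartilage-gated wells it was at 28.2 and 39 CPM and in the remaining wells at 21.6 and 35.7, both below the members without overlap, but those differences did not pass (0.121 and 0.349). Fndc1, a fibronectin type III protein that was chosen here after its values were seen, was at 513 and 487 CPM in members and 177 and 135 in all other wells. It rose by 3.39 ± 0.20 against the cartilage-gated wells (edgeR adjusted p = 0.0155).

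**Figure D3:**
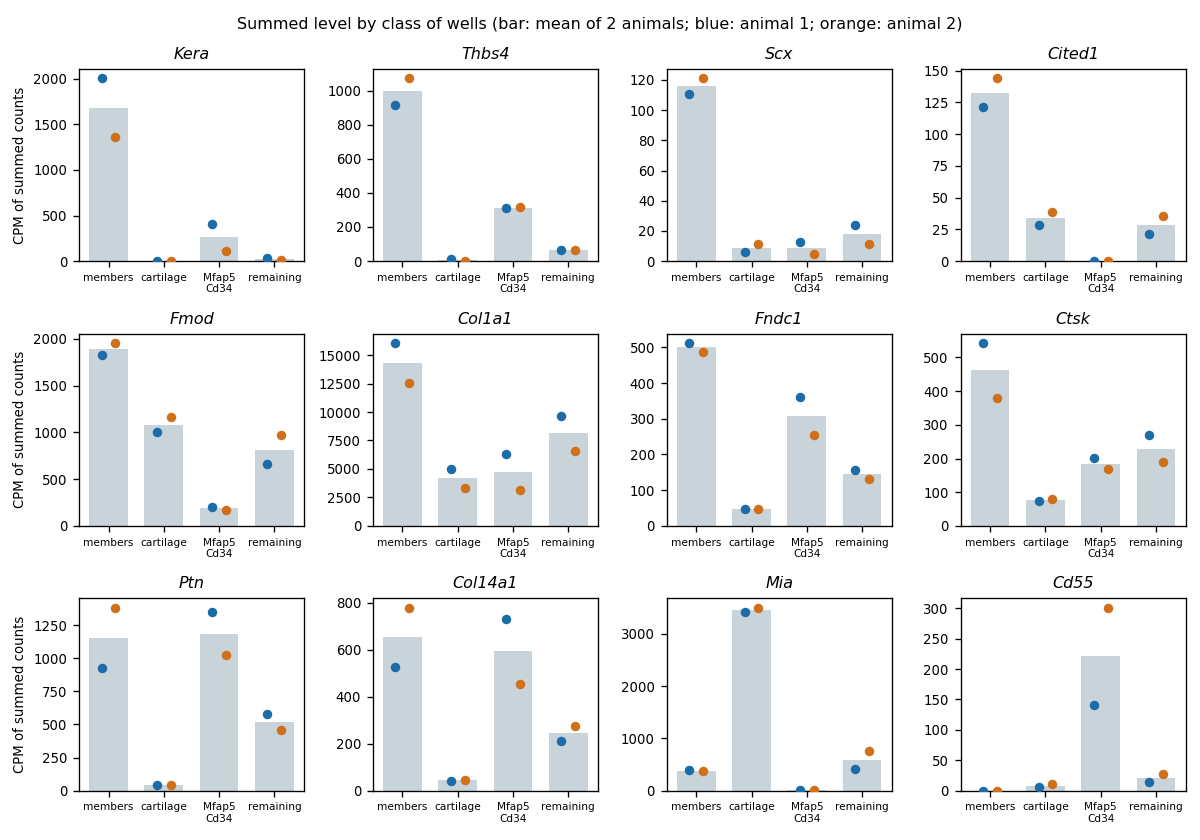
CPM of the summed counts (vertical axis, from 0) of 12 genes in the 4 classes of wells; the bar is the mean of the 2 animals, the blue point animal 1 and the orange point animal 2. Kera, Thbs4 and Scx are highest in the members, Mia is at 392 and 377 CPM in members beside 3418 and 3499.8 in cartilage-gated wells, and Cd55 is at 0 in members.

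Cartilage genes were present in members at levels between the 2 gated classes, within the limit that the rule itself sets on 4 cartilage genes. Of 12 tested chondrocyte markers, Col9a3, Hapln1 and Mia fell against the cartilage-gated wells. Against the Mfap5 Cd34-gated wells Col2a1, Col9a3, Col11a1, Hapln1, Mia and Scrg1 rose. The medians were -2.55 and 4.25, against -0.18 and -0.13 over all genes. Against the remaining wells 6 of 12 were positive (median -0.20, against -0.19 over all genes) and 0 passed, so this level was not particular to the members. Mia, a small protein secreted by chondrocytes, was at 392 and 377 CPM in members against 5.62 and 5.02 in Mfap5 Cd34-gated wells (rise of 6.33 ± 0.35, edgeR adjusted p = 0.0115). Col11a1, a chain of the cartilage fibril collagen XI, was at 1743 and 1579.7 CPM in members and 3311 and 2476 in cartilage-gated wells, where it did not pass (0.221). Against 130.0 and 77.2 CPM in the Mfap5 Cd34-gated wells it rose by 4.19 ± 0.21 (edgeR adjusted p = 0.0115). After thinning, Col11a1 was seen in 94.1% and 94.4% of members and 72% and 71.2% of all other wells.

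Col2a1, the main cartilage collagen, was spread unevenly: the median member held 163 and 163 CPM and the highest 20699.6 and 20565, and 1 well gave 42.6% and 30.1% of the members' counts. Its rise of 4.28 ± 0.41 against the Mfap5 Cd34-gated wells (edgeR adjusted p = 0.0367) was lost with a Tnmd threshold of 1000 CPM (0.0512) or 4000 CPM (0.0770). Single wells also gave 60.3% of the Col9a3 counts in animal 2 and 78.2% of those of 3110079O15Rik in animal 1, both called in the 2 comparisons. The summed 13 chondrocyte markers came to 5221 and 6518 CPM in members and 12431 and 12340 in all other wells. Per well the median was 3256 and 2002 CPM in members and 2318 and 7069 in the others, higher in members of animal 1 and lower in animal 2. Of 87 members 66 exceeded 1000 CPM, a share that was not counted in the other wells. The part of the single high wells in the calls was not tested.

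Fibroblast genes separated the members from the Mfap5 Cd34-gated wells, whose gate is made of such genes. Of 12 fascial and adventitial markers, Pi16 and Sema3c fell against the Mfap5 Cd34-gated wells, and Igfbp6, Dpt and Tppp3 rose against the cartilage-gated wells. The medians were -4.19 and 4.08, against -0.13 and -0.18 over all genes. Against the remaining wells 8 of 12 were positive (median 0.95, against -0.19 over all genes), and against all other wells 1 of 12 (-2.64, against -0.37). In these 2 comparisons 0 passed. Cd55, a complement decay-accelerating factor, had no count in any member. With a limit set at 3 counts over all members it was 685-fold lower than in Mfap5 Cd34-gated wells (142 and 301 CPM, edgeR adjusted p = 0.0181). As with Efemp1, a missed molecule could exceed that limit. Pi16, a protease inhibitor of adventitial fibroblasts, had 3 counts in members and 59.8 and 99.3 CPM in that class, a ratio of 253 (87 to 1229; 0.0485), and lost its call under 4 alternatives. Emilin2, an elastin microfibril interface protein, and Krtdap had 1 count each in members, ratios of 1028 (185 to 40612; 0.0467) and 1877 (337 to 74125; 0.0339). The Emilin2 call was lost with the Tnmd threshold at 1000 CPM (log2 difference -6.63, adjusted p = 0.106) and at 4000 CPM (-9.11, 0.0642). With the threshold at 1000 CPM the Krtdap difference was -2.40 on the log2 scale and no longer passed (adjusted p = 0.795). Igfbp6, an insulin-like growth factor binding protein, was at 240.0 and 521 CPM in members, 1.02 and 2.49 in cartilage-gated wells and 1061 and 1528 in Mfap5 Cd34-gated wells (rise of 7.69 ± 0.89 against the first, edgeR adjusted p = 0.045). Single wells gave 69% and 91.6% of the Dpt counts.

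Signalling genes gave few calls. The 25 TGF-beta genes, the pathway that induces scleraxis in limb tendon, had 0 calls in any comparison. Against all other wells 13 of 25 were positive (median 0.08, against -0.37 over all genes). Against the cartilage-gated wells 18 were positive (median 0.97, against -0.18). Against the Mfap5 Cd34-gated wells 15 were positive (0.28, against -0.13), and against the remaining wells 17 (0.54, against -0.19). Tgfb2 was at 61.5 and 105 CPM in members and 80.4 and 60.8 in all other wells, and Tgfb3 at 40.1 and 66.7 against 50.0 and 25.4, with overlap for both ligands. Of 23 BMP and GDF genes, Id1, a BMP target, fell by 2.43 (SE 0.27) against the cartilage-gated wells (edgeR adjusted p = 0.0417), with 61.7% of its member counts in animal 1 from 1 well. Of 17 FGF genes, the receptor Fgfr2 rose by 3.22 ± 0.34 against the Mfap5 Cd34-gated wells (0.0485), from 7.78 and 6.35 CPM to 83.1 and 40.5; the call was lost under 3 alternatives. Of 21 Wnt genes, the secreted antagonists Wif1 and Frzb rose against the Mfap5 Cd34-gated wells, Wif1 by 3.56 ± 0.20 (edgeR adjusted p = 0.0115) from 100.2 and 122 CPM to 1010.0 and 1364. In the cartilage-gated wells Wif1 was at 1073 and 1319.9 CPM, overlapping with the members. The 12 hedgehog and enthesis genes had 0 calls, with Gli1 at 14.8 and 16.1 CPM in members against 14.2 and 9.69. The 24 adhesion and mechanical response genes also had 0.

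Ctsk, the gene whose promoter drives Cre, was at 544 and 380.4 CPM in members, 74.5 and 78.4 in cartilage-gated wells, 202 and 168 in Mfap5 Cd34-gated wells and 269.6 and 189 in the remaining wells. Both member values lay above every value of the other classes. The rise of 2.56 ± 0.22 passed against the cartilage-gated wells (edgeR adjusted p = 0.0224), and the differences of 1.46 ± 0.21 and 1.15 ± 0.21 against the other classes did not (0.0888 and 0.398). A Ctsk count was found in 45 of 51 and 24 of 36 members, and after thinning in 72.5% and 61.1% of members against 44.3% and 36.1% of all other wells. Ptn, pleiotrophin, a heparin-binding growth factor, rose by 4.83 ± 0.29 against the cartilage-gated wells (edgeR adjusted p = 0.0155), from 39.1 and 41.5 CPM to 924 and 1384. The Ptn differences of 0.11 ± 0.24 against the Mfap5 Cd34-gated wells (0.929) and 1.29 ± 0.25 against the remaining wells (0.398) did not pass. Gsn, gelsolin, which severs actin filaments, fell by 2.51 (SE 0.14) against the Mfap5 Cd34-gated wells (edgeR adjusted p = 0.0115), from 899 and 961 CPM to 149.6 and 146. The other 18 genes of that list passed in no comparison, among them Cd200, Thy1 and Pdgfra at 104 and 106, 18.7 and 49.6, and 38.5 and 39.1 CPM in members.

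Bone and mural genes were lower in members than in all other wells, in sums that a few high wells of the others carry. None of 12 tested osteoblast markers was positive against all other wells (median -2.60, against -0.37 over all genes). Against the Mfap5 Cd34-gated wells 7 of 12 were positive (median 2.96, against -0.13 over all genes). Spp1, osteopontin, alone passed anywhere, rising by 4.80 ± 0.44 against the Mfap5 Cd34-gated wells (edgeR adjusted p = 0.0339). Bglap, osteocalcin, had counts in 2 and 2 members at 0.771 and 0.488 CPM, against 154 and 93.9 in all other wells (0.515). Cxcl12, a chemokine of marrow stroma named here after its values were seen, was at 14.3 and 7.81 against 183 and 166 CPM. The 10 pericyte and smooth muscle markers summed to 101 and 129 CPM in members and 780 and 424 in all other wells, with Notch3 and Des at 0 in members. Their median well was at 0 and 0 CPM in members and 9.88 and 0 in the others, whose highest wells held 35211 and 24763 CPM. Of the 10 markers, 5 were positive against the cartilage-gated wells (median -0.15, against -0.18 over all genes). The median summed osteoblast level was 49.2 and 14.1 CPM in members and 72.3 and 21.1 in the others, with highest wells of 64006 and 52802 CPM in the others. The 6 articular and synovial markers summed to 222 and 1063 CPM against 626 and 1250.

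Markers of cells outside the mesenchyme were low in the members' sums. The summed endothelial markers stood at 1.93 and 12.2 CPM in members (9.49 and 6.13 in the others), with Kdr, Tek, Emcn, Tie1 and Egfl7 at 0. The macrophage and osteoclast markers stood at 49.7 and 68.6 CPM (69.9 and 77.2), with Ptprc and Calcr at 0, and the muscle markers at 49.9 and 33.2 CPM (98.9 and 145), with Mylpf and Myod1 at 0 and 2036 CPM in the highest member of animal 1. The Schwann cell markers stood at 62.8 and 0 CPM (1.22 and 3.88), with Sox10, Erbb3 and Cdh19 at 0, and 1 member of animal 1 held 2918 CPM of them. The erythroid markers stood at 8.10 and 0.977 CPM (10.7 and 5.63).

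Immediate-early and heat shock genes lay mostly lower in members. Of 20, 1 was positive against all other wells (median -0.54, against -0.37 over all genes) and 1 against the cartilage-gated wells (median -1.15, against -0.18). Against the Mfap5 Cd34-gated wells 11 were positive (median 0.05, against -0.13). Of these genes, Hspa1a and Dnajb1, both heat shock genes, fell against the cartilage-gated wells and 0 passed elsewhere. Dnajb1 was at 47.8 and 68.6 CPM in members and 647 and 638 in that class, a fall of 3.49 (SE 0.23; edgeR adjusted p = 0.0155). Hspa1a shares most of its sequence with Hspa1b, and reads could be split between them. Dhx58os, an antisense gene whose reads cannot be told from its partner's where the counting did not use strand, had 1 count in members against 121 and 118 CPM in cartilage-gated wells, a ratio of 1109 (199 to 43800; 0.0224). With the Tnmd threshold at 1000 CPM the Dhx58os difference was -6.25 on the log2 scale and did not pass (adjusted p = 0.0958). The 16 cell cycle genes had 0 calls in any comparison, and Mki67 was counted in 2 and 1 members.

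Across all kept wells, the 10 genes whose level ran most like that of Tnmd, by Spearman's rho over wells averaged over the animals (318 and 335 wells, 6008 genes with a count in at least 10% of them), were Col1a2 (0.392), Kera (0.367), Col1a1 (0.363), Fmod (0.321), Thbs4 (0.317), Thbs2 (0.308), Cilp2 (0.297), Egfl6 (0.279), Zfp185 (0.269) and mt-Nd1 (0.263). The median gene had -0.022. Thbs2, thrombospondin-2, which affects collagen fibril shape, was at 991 and 751 CPM in members against 455 and 251 in all other wells and rose by 1.86 ± 0.21 against the cartilage-gated wells (edgeR adjusted p = 0.0418). Zfp185, a LIM domain protein, was at 214 and 187 CPM against 31 and 39.1. Wells of an animal share a plate, a library pool and a total to which each CPM is scaled, so these values are a description.

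Within the members, Tnmd did not vary alone. Correlations were read over 88 genes with a count in at least 30% of the members of each animal, which are named genes and 2 (Angptl1 and C1qtnf3) added after their values were seen. Those that ran most closely with Tnmd were Kera (rho 0.608 in 51 wells of animal 1 and 0.732 in 36 wells of animal 2), Angptl1 (0.669 and 0.646) and Thbs4 (0.628 and 0.563), against a median of 0.031 over all 3828 gene pairs. Igfbp6 (0.361 and 0.585) and Dcn (0.349 and 0.573) followed. Kera, Angptl1 and Thbs4 were picked as the highest partners, so they lie above that median by choice. Some pairs without Tnmd ran as closely, among them Egr1 and Fos (0.840 and 0.686) and Col1a2 and Sparc (0.796 and 0.511). Angptl1, an angiopoietin-like secreted protein, was at 516 and 367 CPM in members and 118 and 141 in all other wells. Running against Tnmd were Mia (-0.309 and -0.581), Acan, the cartilage proteoglycan aggrecan (-0.350 and -0.427), Col16a1 (-0.492 and -0.208) and Bgn (-0.238 and -0.425). Cilp2 (-0.151 and -0.477) and Scrg1 (-0.088 and -0.496) were weak in animal 1. Tnmd itself ran at -0.364 and -0.081 with the well's total counts, so depth moved with it in animal 1, and its part in these values was not tested.

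The tendon marker list did not run with Tnmd as a whole. Of 9 tendon markers among these genes 4 had a positive rho in both animals (Kera, Thbs4, Fmod and Col14a1) and 4 a negative one (Cilp2, Col12a1, Clec11a and Comp). Of 8 chondrocyte markers 0 were positive in both, 6 were negative in both and 2 of mixed sign (Col2a1 at 0.016 and -0.507, Col11a2 at 0.215 and -0.150). The same shares over all genes read were not counted, so the counts for both lists are a description only. Kera and Mia both exceeded 100 CPM in 3 members of animal 1 and 4 of animal 2, Kera alone in 28 and 19, Mia alone in 8 and 6, and neither in 12 and 7. Kera and Thbs4 exceeded 100 CPM together in 23 and 18 members, Kera alone in 8 and 5, Thbs4 alone in 8 and 9, and neither in 12 and 4. Dcn and Kera ran together (0.682 and 0.808), as did Col1a1 and Col1a2 (0.900 in each animal), whose products form one protein. Ptn and Wif1 had the most negative mean rho of all pairs (-0.553 and -0.529), so that pair stands out by choice. The 2 genes exceeded 100 CPM together in 12 and 18 members, Ptn alone in 14 and 7, Wif1 alone in 23 and 8, and neither in 2 and 3.

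**Figure D4:**
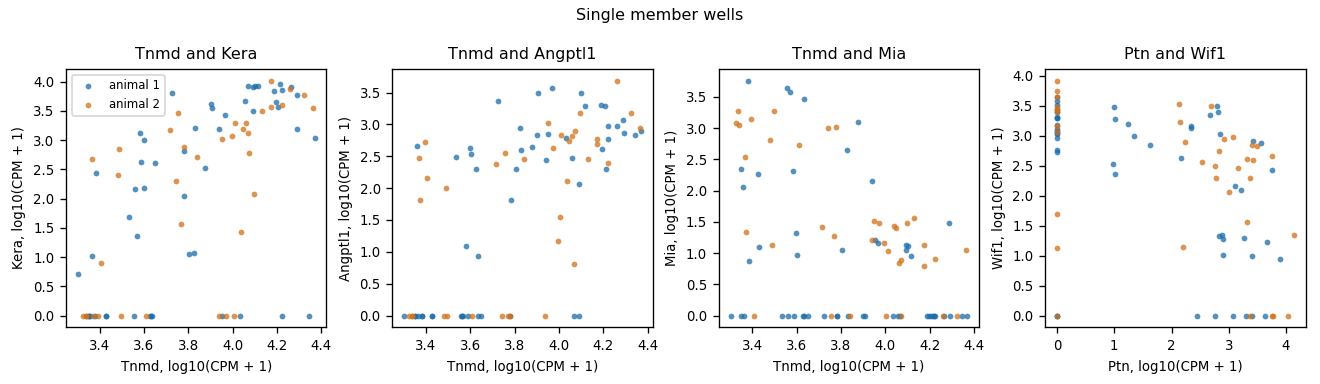
Pairs of genes in single member wells on log10(CPM + 1) scales (both axes); blue points are wells of animal 1 and orange points wells of animal 2. Kera and Angptl1 run with Tnmd, Mia runs against it, and Ptn runs against Wif1, the pair with the most negative mean rho.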

How the data were processed

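Single GFP-positive cells from the femurs of 2 littermate mice were sorted into 2 plates, 1 per animal, and sequenced as pooled template-switch libraries. The authors deposited whole-number counts per gene and well (24866 genes, 658 wells). CASAVA and mm10 are named per the submitters' processing notes; the aligner, the counter, the annotation and any collapsing of duplicates were not given in the sources used here. The median nonzero count was 18, so a count was not read as 1 molecule. Classes of wells come from the same animals, which pairs the sums, and p-values rest on 2 animals.

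The members and gene lists were chosen with earlier results of these data known. Wells were kept where 500 or more genes were detected and mitochondrial genes took no more than 20% of the counts (653; 5 were left out, all without Tnmd). Single sorted wells were used and no doublet caller was run. Raw counts were summed per animal and class; the summed libraries held 4095702 to 13977312 counts. Sums were tested with edgeR 4.0.16 (R 4.3.3; TMM, filterByExpr, quasi-likelihood, animal as a block, Benjamini-Hochberg over all genes tested, two-sided, threshold 0.05), in 1 fit of 4 sums against all other wells and 1 fit of 8 sums for the 3 classes. Detection was compared after thinning to 20000 counts, which left out 3 wells and 0 members. Spearman correlations, sums and intervals used Python 3.11.15, numpy 2.4.6, scipy 1.17.1 and pandas 2.3.3. The fits were also run on simulated counts with known changes, whose outcome is not given here and on which no result rests. Symbols were taken as in the table, positions from GENCODE on GRCm38 and upstream sequences from RefSeq.

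Genes were named by rule: the 5 called genes with the largest log2 fold change in each direction per class comparison (10 against all other wells), changed the same way in both animals, with at least 20 CPM in the higher class and no single well holding most of its counts there; every tendon marker; called genes of the other lists and up to 4 more per list by level in members; Ctsk; and the 10 genes most like Tnmd. Alternatives were RLE size factors, DESeq2 1.42.0, no filter, no block, Tnmd thresholds of 1000 and 4000 CPM, thinned wells, limma 3.58.1 on log2(mean CPM + 1), the mean of the 3 classes and each animal left out.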

Additional observations from a re-analysis of the deposited data

How the results depend on the processing

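Against all other wells, where 0 genes passed, DESeq2 called 305, thinned wells 73 and the contrast with the mean of the 3 classes 14. Against the cartilage-gated wells (77 calls) DESeq2 called 1053, thinned wells 216 and limma on mean CPM 122. Against the Mfap5 Cd34-gated wells (43 calls) these gave 1023, 158 and 98, limma with 47 higher and 51 lower and DESeq2 with 425 higher and 598 lower. Against the remaining wells (0 calls) DESeq2 called 545, no filter 3, thinned wells 8 and limma 2. RLE size factors gave 0, 79, 43 and 0. Without the replicate block the counts were 0, 66, 56 and 0, with 52 of the 77 and 33 of the 43 genes shared. Of the named calls 21 were lost without it, among them Col1a1 and Col1a2 in both comparisons, Col3a1, Col5a1, Thbs2, Lox and Postn against the cartilage-gated wells, and Col16a1 and Eln against the Mfap5 Cd34-gated wells. Of the named calls, 16 of 39 and 17 of 31 passed under every alternative that gives a test, Kera, Ctsk, Dcn, Ptn and Col14a1 among the first and Fmod, Tnc, Col12a1, Comp and Cited1 among the second. With 1 animal left out no residual degrees of freedom remain, so counts could not be computed; of the 110 fold changes recomputed (tendon markers and Ctsk in each comparison, and named calls) all kept their sign except Comp against all other wells (-0.083 without animal 1, 0.35 without animal 2), Comp against the remaining wells (-0.15 and 0.55) and Col14a1 against the Mfap5 Cd34-gated wells (0.85 and -0.35). With Tnmd at 1000 CPM the calls of Cd55, Col6a2, Egfl6, Hapln1 and Omd (cartilage-gated) and of Bgn, Eln and Scrg1 (Mfap5 Cd34-gated) were also lost, at 4000 CPM those of Col9a3 (both), Dnajb1 and Id1 (cartilage-gated) and of Bgn, Scrg1 and Sema3c (Mfap5 Cd34-gated). Col5a2 was lost in thinned wells and Il33 in limma, both against the cartilage-gated wells. The share of members was 16.2% with Tnmd at 1000 CPM and 9.34% at 4000 CPM, and 10.7% to 16.0% with 1 animal left out. The cause of these differences was not tested. Scx, Mkx and the cycle genes were seen in few wells, and a well without a count may express the gene at this depth.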
